A study of Mus musculus with 7 samples.

Results

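The genes described here encode proteins of the piRNA pathway and of germ granules: Piwil1, Piwil2, Piwil4, Ddx4, Mael, Tdrd1, Tdrd6, Tdrd9, Rnf17 and Mov10l1. Members were the probe sets annotated to exactly 1 of these 10 symbols, and all were kept. On the design used for Sertoli and TM4 cells, 13 probe sets measured 9 of the genes, out of 18193 genes in all. On the design used for whole testis, 1 probe set measured 1 of them, Ddx4, out of 8251 genes. Tdrd6 was matched by no probe set under this rule, so it has no value here.

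RNA from mouse was hybridised to 7 Affymetrix arrays. Whole testis was profiled at 4 weeks in wild type and in the ERM knockout. Primary Sertoli cells, the somatic nurse cells of the seminiferous tubule, came from wild type at 4 weeks, from the ERM knockout at 4 weeks and from the ERM knockout at 10 weeks. The TM4 line, derived from mouse Sertoli cells, was profiled with and without transfected ERM. ERM, encoded by Etv5, is an ETS-family transcription factor, and the study's title concerns loss of germline stem cells in its absence. Each group was 1 array, so no value had a replicate, no test across samples could be made, and the number of arrays limits every comparison. No wild-type Sertoli array at 10 weeks was analysed here, so age and genotype cannot be told apart at 10 weeks. The sources used here do not state the strain, the part of Etv5 removed, the number of animals pooled or the purity of the Sertoli preparations.

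PIWI proteins are Argonaute-family proteins of the germ line that bind piRNAs, small RNAs that guide silencing of transposons. Around them, helicases, Tudor-domain proteins and other factors are held in germ granules, the intermitochondrial cement and the chromatoid body of male germ cells. The pathway is active in prospermatogonia, spermatogonia, spermatocytes and round spermatids, and most of its genes are little used by somatic cells. Readings of these genes on Sertoli arrays are therefore set beside markers of germ cells throughout.

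Sequences upstream of member genes are shown first. Several carry the same short word, and any relation of this word to the members' readings was not tested. RefSeq promoter windows (GRCm38.p6, from 250 bases before to 50 bases after each transcript start) were found for 7 of the 10 members. The palindrome CACGTG, an E-box, was searched on both strands. It was present in the windows of 6 of 7 members, Ddx4, Mael, Mov10l1, Piwil1, Tdrd1 and Tdrd9, and absent from both windows of Piwil4. Over all 27025 genes with a window, 8.09% held it, and among the 12388 genes with a window of at least 10 CG pairs, 11.8% did. The word itself contains a CG, and the member windows held a median of 19 CG against 7 over all windows. Of the 22 further piRNA pathway genes listed below, 20 had a window and 5 held the word. The 250 bases before the start are printed for Ddx4, Mael and Piwil1, 3 of the members with the lowest ratio of the 10-week to the 4-week knockout Sertoli array, and for Mov10l1, which was not lower there. Capitals mark CACGTG.
Ddx4, chr13:112652311-112652560, minus strand: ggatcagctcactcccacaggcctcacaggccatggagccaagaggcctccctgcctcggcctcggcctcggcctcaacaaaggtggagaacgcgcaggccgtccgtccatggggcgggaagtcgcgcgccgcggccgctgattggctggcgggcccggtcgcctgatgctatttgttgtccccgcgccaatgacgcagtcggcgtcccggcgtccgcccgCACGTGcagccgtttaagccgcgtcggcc
Mael, chr1:166238745-166238994, minus strand: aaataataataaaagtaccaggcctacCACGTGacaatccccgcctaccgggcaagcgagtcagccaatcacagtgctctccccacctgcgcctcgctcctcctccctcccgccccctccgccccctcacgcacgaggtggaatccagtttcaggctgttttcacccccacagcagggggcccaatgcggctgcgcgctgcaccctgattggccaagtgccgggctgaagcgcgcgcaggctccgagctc
Piwil1, chr5:128735996-128736245, plus strand: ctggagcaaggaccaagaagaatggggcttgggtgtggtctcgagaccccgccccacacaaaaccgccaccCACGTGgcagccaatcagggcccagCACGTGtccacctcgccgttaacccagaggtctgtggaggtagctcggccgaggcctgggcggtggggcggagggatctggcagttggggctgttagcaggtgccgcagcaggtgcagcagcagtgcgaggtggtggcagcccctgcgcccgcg
Mov10l1, chr15:88982744-88982993, plus strand: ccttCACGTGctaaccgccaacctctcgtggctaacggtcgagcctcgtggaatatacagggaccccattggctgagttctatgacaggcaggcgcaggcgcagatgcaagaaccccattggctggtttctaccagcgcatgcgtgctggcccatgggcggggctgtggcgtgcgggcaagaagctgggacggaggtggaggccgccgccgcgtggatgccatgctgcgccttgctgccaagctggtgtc
Counted from the transcript start, the first base of the word is at -29 in Ddx4, -223 in Mael and -246 in Mov10l1, and at -179 and -154 in Piwil1. Further words were searched on both strands, each on its own, with no check of whether matches of different words overlap. TAACNG or CAACNG, forms of the MYB site, occurred in 4 of 7 members, in 53.1% of all genes and in 45.8% of those with a window of at least 10 CG. TCCCGC, an E2F-like word, occurred in 2 of 7 members, in 22.1% of all genes and in 42.4% of those with a window of at least 10 CG, and TGACGTCA, the cyclic AMP response element, in 0 of 7, 2.03% and 3.62%. These are matches of letters and say nothing about binding, and the words were chosen with the sequences in view.

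Levels are given as scaled intensity. Each array was scaled so that its trimmed mean equals 500, and a reading below 100 was treated as below the floor. On the Sertoli and TM4 arrays 72.0% to 77.0% of probe sets were at or above it. The label of the knockout arrays could not be checked by its target: Etv5 read no lower on them (1428142_at: 710 in wild-type Sertoli cells, 910 in the knockout at 4 weeks and 995 at 10 weeks), and a probe set outside the deleted part would check nothing. In TM4 the 3 Etv5 probe sets read 405, 314 and 187 without ERM and 473, 475 and 211 with it (1428142_at, 1450082_s_at and 1420998_at in that order). Knockout below means an array so labelled.

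On the wild-type Sertoli array all 9 measured genes were at or above the floor, and on the 4-week knockout array all 9 were. On the 10-week knockout array 6 of 9 were, on untransfected TM4 5 of 9 and on TM4 with ERM 4 of 9. The summed reading of the 9 genes was 11620 in wild-type Sertoli cells, 7878 in the knockout at 4 weeks and 1395 in the knockout at 10 weeks. It was 1673 in TM4 without and 1510 in TM4 with ERM. The 10-week sum lay under both TM4 sums. Ddx4 and Mael made up most of the wild-type sum, and the median member probe set read 385 in wild type, 298 in the knockout at 4 weeks and 107 at 10 weeks. In such bulk RNA, the cells that gave the signal are not known, and fewer cells and less RNA per cell cannot be told apart.

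**Figure D1:**
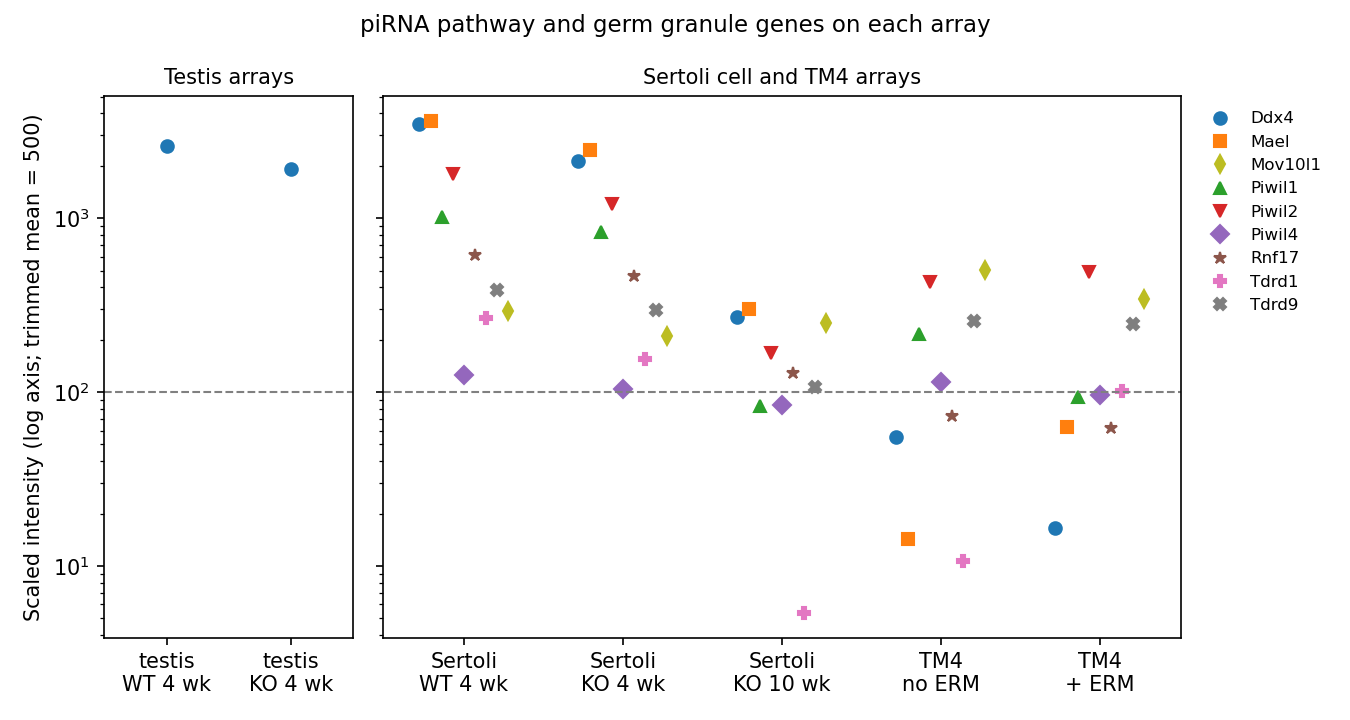
Scaled intensity (log axis) of the representing probe set of each gene on the 2 testis arrays (left, Ddx4 only) and the 5 Sertoli and TM4 arrays (right); each point is 1 array, with no error, and the dashed line is the floor of 100. Ddx4 and Mael read 3497 and 3617 in wild-type Sertoli cells and 268 and 302 in the knockout at 10 weeks, while Mov10l1 stays between 210 and 506 on all 5 arrays.

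Among the PIWI genes, Piwil2 (MILI, which acts from fetal germ cells to spermatids) read 1807 in wild-type Sertoli cells, 1206 in the knockout at 4 weeks and 167 in the knockout at 10 weeks, with 429 and 487 in TM4 without and with ERM. Piwil1 (MIWI, the PIWI protein of pachytene spermatocytes and round spermatids) read 1016, 835 and 82.9 on the same Sertoli arrays and 215 and 93.7 in TM4. Both were high on the 4-week arrays, and at 10 weeks both were below untransfected TM4. Piwil4 (MIWI2, the nuclear PIWI protein of fetal prospermatogonia) was barely measured. Its probe set 1447564_x_at read 125, 104 and 84.5 in Sertoli cells and 114 and 95.6 in TM4, and 1439716_at was below the floor on all 5 arrays. Its readings lay so near the floor that its ratios carry little weight.

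Ddx4 (mouse vasa homologue, the germ-cell RNA helicase) read 3497 in wild-type Sertoli cells, 2124 in the knockout at 4 weeks and 268 in the knockout at 10 weeks. It was below the floor in TM4, at 55.1 without and 16.6 with ERM. Mael (maelstrom, a germ granule protein needed for transposon silencing) had nearly the same course, at 3617, 2481 and 302 in Sertoli cells and 14.2 and 62.8 in TM4. These 2 genes had the clearest range, since TM4 gave no reading above the floor.

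Of the Tudor-domain genes, Tdrd1, a scaffold that binds PIWI proteins, read 267 in wild-type Sertoli cells and 155 in the 4-week knockout. It was at 5.36 in the 10-week knockout and at 10.7 and 101 in TM4. Tdrd9, a Tudor protein with a helicase domain, read 385, 298 and 107 in Sertoli cells and 256 and 246 in TM4, so that 10-week knockout Sertoli cells lay under both TM4 arrays. Mov10l1, the helicase that starts piRNA processing, read 292, 210 and 248 in Sertoli cells and 506 and 345 in TM4. Its probe set was thus brighter in the line than in any Sertoli preparation, and it did not separate 4 from 10 weeks.

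Rnf17, a Tudor and RING-finger protein of spermatocyte and spermatid granules, had 4 probe sets. The brightest, 1438820_at, read 615 in wild-type Sertoli cells, 464 in the 4-week and 129 in the 10-week knockout, and 72.6 and 61.7 in TM4. Probe set 1459275_at read 347, 220 and 49.4, and 1425708_at 243, 214 and 75.8 on the Sertoli arrays. The remaining probe set, 1425709_at, read 399, 323 and 266, so it kept most of its signal at 10 weeks. All 4 were highest in wild type, but they disagree on how low the gene was at 10 weeks and in TM4.

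**Figure D2:**
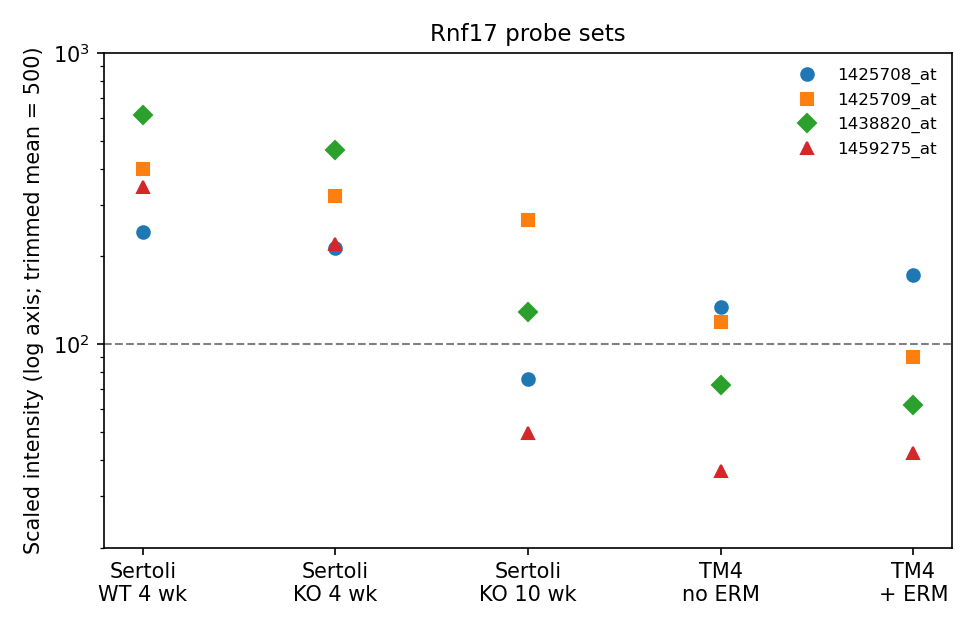
Scaled intensity (log axis) of the 4 Rnf17 probe sets on the 5 Sertoli and TM4 arrays; each point is 1 array, with no error, and the dashed line is the floor of 100. Between the 4-week and the 10-week knockout, 3 probe sets drop to 129 or less, and 1425709_at goes from 323 to 266.

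In Sertoli cells at 4 weeks, all 9 genes read lower on the array labelled ERM knockout, each within 2-fold. In the background, 51.8% of 15860 genes had a log2 ratio below 0, 3.18% were at least 2-fold lower and 0.681% at least 2-fold higher. Tdrd1 was 1.72-fold lower and Ddx4 1.65-fold. Mael was 1.46-fold lower, and Piwil2 had a log2 ratio of -0.58. Mov10l1, Rnf17 and Tdrd9 were 1.39-fold, 1.32-fold and 1.29-fold lower, and Piwil1 and Piwil4 1.22-fold and 1.21-fold. The median log2 ratio was -0.48 (range -0.79 to -0.27), against -0.02 over all genes. For the median of the members the 7 other settings gave -0.53 to -0.36. The only error available is the spread between probe sets of the same bright gene, with an SD of 0.20 in log2 units in this comparison. That spread is within an array pair and not between animals, so whether these differences exceed the spread between preparations was not tested. The 4-week knockout array also carried high ribosomal RNA: its small-subunit control probe set for the 5' part read 4551, against 349 in wild type and 352 in the 10-week knockout. All 6 macrophage markers were also lower on that array, 4 of them at least 2-fold (median -1.55; summed reading 3048 against 8862 in wild type). The part of both in the result was not tested.

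Between the knockout ages the members differed far more. At 10 weeks, 6 of 9 genes were at least 2-fold lower than in the knockout at 4 weeks, where 3.51% of 15849 genes were and 4.19% were at least 2-fold higher. Mael was 8.21-fold lower, Ddx4 7.91-fold and Piwil2 7.21-fold. Piwil1 was at least 8.35-fold lower, since its 10-week reading lay below the floor. Rnf17 was 3.60-fold and Tdrd9 2.78-fold lower. Tdrd1 was at least 1.55-fold lower, Piwil4 stood at the floor, and Mov10l1 was 1.18-fold higher. The median log2 ratio was -1.85, with genes below the floor entered at their bound, against -0.03 over all genes. This median is the value of Rnf17 on 1438820_at. Its further probe sets gave -0.28 on 1425709_at and, as bounds, -1.10 on 1425708_at and -1.14 on 1459275_at. With a floor raised to 0.4 of that mean, Tdrd9 had a log2 ratio of -0.58 and 5 genes remained past 2-fold.

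The ribosomal signal was high only on the 4-week knockout array of the 5, so the 10-week array was also set against wild type. There, 7 of 9 genes were at least 2-fold lower, against 4.22% of 15911 genes, with 1.62% at least 2-fold higher. The log2 ratio of Ddx4 was -3.70. Mael was 12.0-fold lower and Piwil2 10.8-fold, and Piwil1 was at least 10.2-fold lower. Rnf17 was 4.76-fold, Tdrd9 3.59-fold and Tdrd1 at least 2.67-fold lower, with Piwil4 at least 1.25-fold and Mov10l1 1.18-fold. These comparisons share arrays with the previous ones and are not independent of them. In all, 8 of 9 genes followed the order wild type, then 4-week knockout, then 10-week knockout, and Mov10l1 was the exception. That order held for 17.5% of 16106 genes.

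**Figure D3:**
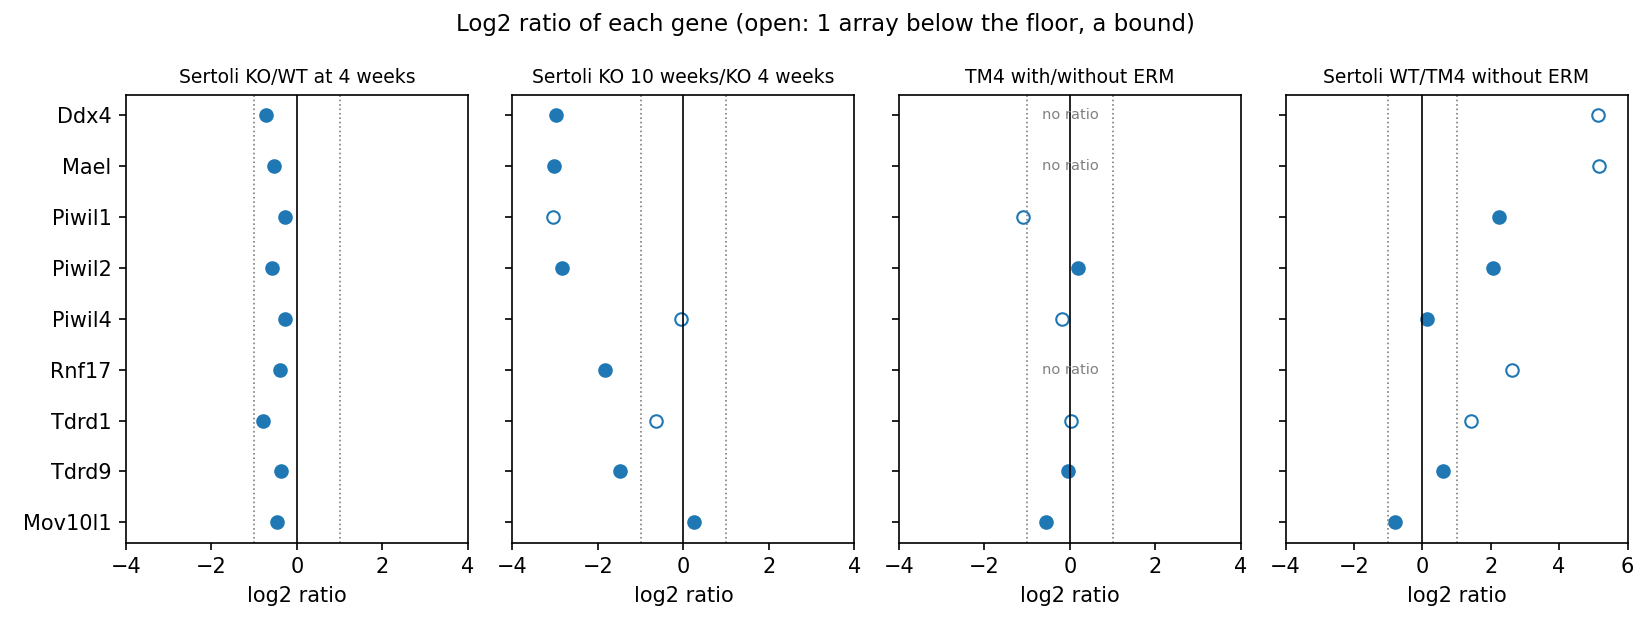
Log2 ratio of each of the 9 measured genes in 4 comparisons; each point is 1 array pair with no error, an open point is a bound because 1 array was below the floor, and dotted lines mark 2-fold. All 9 points lie between -0.79 and -0.27 for knockout against wild type at 4 weeks, and the points for Ddx4, Mael, Piwil1 and Piwil2 lie between -3.06 and -2.85 for 10 against 4 weeks.

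Between the TM4 arrays without and with transfected ERM, most of these genes differed little. Etv5 itself read only 405 and 473 on 1428142_at, 314 and 475 on 1450082_s_at, and 187 and 211 on 1420998_at. How much ERM the transfected cells gained was not tested, which limits this comparison. Ddx4, Mael and the representing probe set of Rnf17 were below the floor with and without ERM and have no ratio. Among the further Rnf17 probe sets, 1425708_at read 134 without and 173 with ERM, a log2 ratio of 0.36. Probe set 1425709_at read 119 without and 90.3 with ERM (-0.25, a bound), and 1459275_at was below the floor on both arrays. Of the 6 genes with a ratio, 5 were within 2-fold, with Piwil2 1.13-fold higher, Mov10l1 1.47-fold lower and Tdrd9 1.04-fold lower. Piwil1 was at least 2.15-fold lower with ERM, where 0.421% of 16158 genes were at least 2-fold lower and 0.303% at least 2-fold higher. That ratio sets a reading of 215 against one below the floor. With the values as deposited its log2 ratio was -0.66, and with a floor raised to 0.4 of that mean -0.11. Tdrd1 stood at the floor on 1 array and below it on the other.

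Against untransfected TM4, wild-type Sertoli cells read at least 2-fold higher for 6 of 9 genes, where 17.8% of 16916 genes were and 16.1% were at least 2-fold lower. Mael was at least 36.2-fold and Ddx4 at least 35.0-fold higher. Rnf17 was at least 6.15-fold higher and Tdrd1 at least 2.67-fold higher. On its further probe sets Rnf17 was 1.80-fold (1425708_at), 3.35-fold (1425709_at) and at least 3.47-fold (1459275_at) higher. Piwil1 and Piwil2 were 4.72-fold and 4.21-fold higher, with a reading above the floor in TM4. Tdrd9 was 1.51-fold and Piwil4 1.10-fold higher, and Mov10l1 was 1.73-fold lower. The probe sets of Piwil2, Tdrd9 and Mov10l1 thus read above the floor in TM4 too.

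In whole testis at 4 weeks the 1 measured member, Ddx4, read 2596 in wild type and 1925 in the knockout (94162_at). It was 1.35-fold lower, a log2 ratio of -0.43, where 0.852% of 7515 genes were at least 2-fold lower, 0.532% at least 2-fold higher and 52.1% had a ratio below 0. The SD between probe sets of a bright gene in this pair was 0.25. The testis design differs from that of the Sertoli arrays, so levels are not compared between them.

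Germ-cell markers were read on the same Sertoli arrays, and the lists differed. The 12 spermatocyte markers summed to 23556 in wild type, 15778 in the 4-week knockout and 2855 in the 10-week knockout, and to 1767 and 1795 in TM4. Their median log2 ratio was -0.51 at 4 weeks and, between the knockout ages, -2.48, with 9 of 12 at least 2-fold lower. At 10 weeks, 3 of the 12 were below the floor, Sycp1 (76.3 against 785 in wild type), Tex101 (9.70 against 1752) and Meiob (71.9 against 333). The sum of the 10 spermatid markers went the other way at 4 weeks, with 12495 in wild type and 17397 in the knockout. Of these markers 8 read higher in the knockout and 2 lower, Spaca1 (-0.25) and Acrv1 (-0.01), with a median of 0.42. These markers summed to 5469 at 10 weeks. In TM4 without and with ERM their sums were 4312 and 4133. The 6 markers of differentiating spermatogonia summed to 2195, 1183 and 953, and to 1643 and 1791 in TM4, above both knockout Sertoli arrays. At 4 weeks Stra8, a gene of meiotic entry (866 in wild type and 259 in the knockout), and Dmrt1 (395 and 183) were at least 2-fold lower. Between the knockout ages Dmrtb1 was lower (289 to 92.7, below the floor), while Kit (125 to 203) and Dmrt1 (183 to 288) read higher. The 8 measured markers of undifferentiated spermatogonia summed to 4092, 5746 and 2968, a sum set mostly by Id4 (2838, 4598 and 1819). In TM4 they summed to 4283 and 4151, above wild-type Sertoli cells. Against untransfected TM4, 5 of the 7 with a ratio were at least 2-fold lower in wild-type Sertoli cells, and 1 was at least 2-fold higher. Between the knockout ages 6 of the 8 had a ratio, with Id4 at -1.34 and a median of 0.20, so sum and median differ in direction. The part of germ-cell content in the members' differences was not tested.

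The sum of the Sertoli cell markers stayed high, set mostly by Clu (16016 in wild type) and Ctsl (12575), while Fshr read only 139, 170 and 190. All 11 measured markers were above the floor on the 3 Sertoli arrays, with sums of 47868, 53525 and 52916, and none was past 2-fold in the 4-week or the age comparison. Sox9, a Sertoli transcription factor, read 5220, 6439 and 6380. In TM4 the sums were 16240 and 15761, mostly Ctsl (9975 and 9745), with Wt1 below the floor on both arrays. Against untransfected TM4, 7 of the 11 were at least 2-fold higher in wild-type Sertoli cells, and 2 were at least 2-fold lower, Inhbb (318 against 3833) and Amh (322 against 651). Macrophage markers summed to 8862, 3048 and 5212 and Leydig cell markers to 2159, 3319 and 5541 in wild type, 4-week and 10-week knockout, so neither followed the order of the members. Peritubular cell markers summed to 6537, 8196 and 10963.

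**Figure D4:**
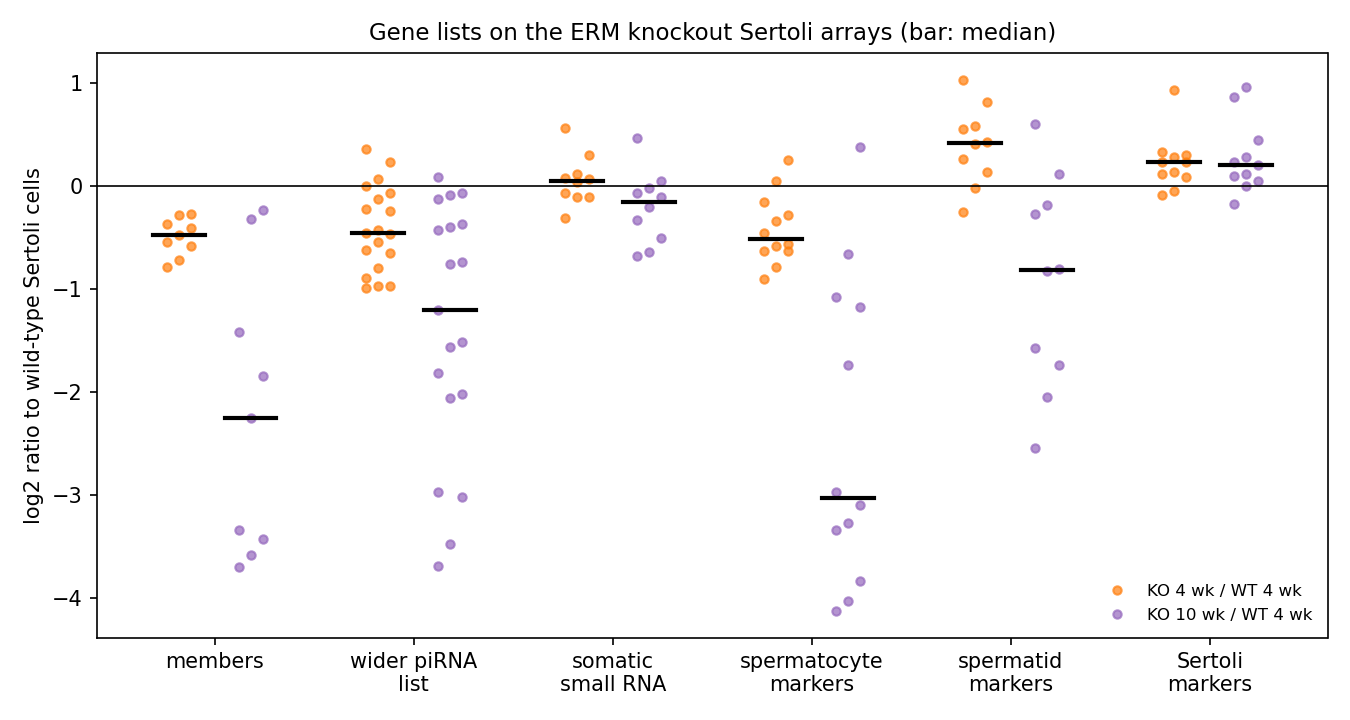
Log2 ratio of each gene of 6 lists on the knockout Sertoli arrays at 4 weeks (orange) and 10 weeks (purple), both against the same wild-type array at 4 weeks; each point is 1 gene, without error, and bars are medians. The members have medians of -0.48 and -2.25, spermatocyte markers -0.51 and -3.04, Sertoli markers 0.24 and 0.21, and the somatic small RNA genes 0.05 and -0.15. The members' median of -2.25 is the value of Rnf17 on 1438820_at, 1 of its disagreeing probe sets.

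Other genes of the piRNA pathway, taken from a list of 22 of which 19 had a probe set, behaved unevenly. In Sertoli cells at 4 weeks none of the 19 was past 2-fold, 15 were below 0 and the median log2 ratio was -0.45. Tdrkh, a mitochondrial Tudor protein, was at -0.99, Mybl1, the transcription factor of pachytene piRNA genes, at -0.97 (-0.23 as a bound on a dimmer probe set), Stk31, a Tudor-domain kinase-like protein, at -0.97 and Tdrd12 at -0.89. Between the knockout ages 7 of 19 were at least 2-fold lower, with a median of -0.58. Dazl, the germ-cell RNA-binding protein, read 1959 at 4 and 255 at 10 weeks (log2 ratio -2.94). Stk31 was at -2.72, Pld6, the mitochondrial piRNA-processing nuclease, at -2.36 (a bound), and Gtsf1, a PIWI partner, at -2.23. The further probe sets of Dazl and Gtsf1 gave -3.09 (a bound) and -3.00. Tdrd7, a Tudor protein also made outside the germ line, read 1261 at 4 and 1420 at 10 weeks. It was the 1 gene of the list that read higher at 10 weeks on its representing probe set, and its dimmer one was at -0.004. Tdrd3 stood at -0.16, but at 0.32 (1434869_at) and 0.21 (1441496_at) on further probe sets. Kif17 was at -0.27, but at 0.40 on 1422762_at. The 2 probe sets of Asz1 disagreed, at -0.14 for the brighter and -1.14 for 1424939_at (238 at 4 and 108 at 10 weeks).

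Against TM4, 10 of the 19 were at least 2-fold higher in wild-type Sertoli cells, among them Dazl (3.95), Stk31 (3.72, a bound) and Gtsf1 (3.53) in log2 ratio. The methyltransferase subunits Wdr77 (-1.54) and Prmt5 (-1.09), which serve all cells, were at least 2-fold lower, though 1 of 3 Wdr77 probe sets was at -0.05. With ERM in TM4, Ddx25, a helicase of the chromatoid body, was the 1 gene of 16 with a ratio past 2-fold (-1.23, 130 against 306). Mybl1 stood at 0.51, Gtsf1 at 0.28 and Asz1 at 0.25. Further probe sets of Gtsf1 (-0.21) and Asz1 (-0.27) had the opposite sign, so no direction is given for either gene. In testis 5 genes of the list had a probe set, and all 5 read lower in the knockout. Dazl read 402 against 1364 (-1.76), Wdr77 was at -0.79, Mybl1 at -0.56 and Ddx25 at -0.12.

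Effectors of transposon silencing in the nucleus differed among themselves. Of 9 measured in Sertoli cells at 4 weeks, Tex15 (-1.23) and Hells (-1.20), a chromatin remodeller, were at least 2-fold lower, Uhrf1 was at -0.83 and Morc1 at 0.59, with a median of -0.09. Dimmer probe sets of Hells (-0.15) and Uhrf1 (0.14) did not show the difference at 4 weeks, nor that of Hells between the ages (0.21). Between the knockout ages Hells (-1.18), Uhrf1 (-1.08, a bound) and Morc1 (-1.08, a bound) were at least 2-fold lower, and Dnmt3a stood at 0.84 (-0.20 on 1423064_at). Hells and Uhrf1 are also genes of dividing cells, and both were at least 2-fold lower in wild-type Sertoli cells than in TM4 (-2.03 and -1.99). On dimmer probe sets Uhrf1 was at -2.76, but Hells was at -0.42 (1430139_at) and, as a bound, -0.95 (1453361_at). In wild-type Sertoli cells Dnmt3l was higher than in TM4 (2.07, a bound) and Tex15 too (1.32, a bound). In TM4 with ERM none of 6 was past 2-fold, with Trim28 at -0.42 and Dnmt3a at -0.37. Further Dnmt3a probe sets were at 0.27 (1423064_at), 0.09 (1460324_at) and, as a bound, -0.73 (1423066_at), so no direction is given for Dnmt3a there. In testis Hells was at -2.33, and Setdb1, Trim28 and Uhrf1 at -0.44, -0.32 and -0.31.

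The somatic small RNA genes, microRNA factors and Mov10, the paralogue of Mov10l1, were mostly within 2-fold. None of 10 was past 2-fold in Sertoli cells at 4 weeks (median 0.05), with Tarbp2 at 0.57, Mov10 at 0.31, Drosha at -0.31 and Ago1 at 0.12. The 5 probe sets of Ago3 disagreed. The brightest on average, which represents the gene, was at 0.04, but 1442009_at read 796 in wild type, 140 in the knockout at 4 weeks and 602 at 10 weeks (-2.51 at 4 weeks and 2.10 between the ages). Between the knockout ages 1 of 10, Tarbp2, was at least 2-fold lower (-1.21), with Ago1 at -0.80 and Ago2 at 0.38. In TM4 with ERM none was past 2-fold, with Ago4 at -0.22 (a bound), Tarbp2 at -0.21 and Mov10 at 0.20. In testis the 4 measured genes lay between -0.24 (Tarbp2) and 0.16. Against TM4, Xpo5 (-1.51) and the representing Ago3 probe set (-1.49) were at least 2-fold lower in wild-type Sertoli cells, and Drosha stood at -0.91 (1.26 on 1438440_at). A further Xpo5 probe set was at -0.42. Other Ago3 probe sets gave the opposite direction (2.99 and 1.67 as bounds, and 0.54), so no direction is given for Ago3.

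Genes with a profile most like that of the members were sought over the 5 Sertoli and TM4 arrays, by the root mean square difference of centred log2 readings, among 15106 genes. Nearest to the mean of the 9 members were Cfap65 (0.08), Ptpn20 (0.11), Wfdc15a (0.12), Rbm44 (0.12), Ccp110 (0.13), Dpep3 (0.13), Dnajc5g (0.13) and Cfap69 (0.15). The members themselves lay at 0.25 (Rnf17) to 1.34 (Mael) from their own mean, so the mean describes Rnf17 best. Nearest to Ddx4 alone were Fabp9 (0.07), Spata4 (0.11), Sycp3 (0.17), Rpl39l (0.19) and Ropn1l (0.20), and of the members Mael (0.09). Fabp9 read 3676, 2134 and 306 on the Sertoli arrays. With 5 arrays such likeness is a description only.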

How the data were processed

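Intensity values deposited by the authors were used from the series tables; the software, scaling and genome build behind them were not given in the sources used here. Each array was scaled within its own table to a mean of 500 after trimming 2% of probe sets, controls left out, from each end; on the deposited scale this mean was 183 to 299 on the Sertoli and TM4 arrays. Scaled readings below 100 (0.2 of that mean) were set to this floor before log2 ratios. A ratio with both arrays below it was not given, and with 1 below it is a bound. A gene was represented by its probe set of highest mean reading, and a gene was counted when at least 2-fold different. Probe sets naming several genes or none were left out (34945 and 10833 on the 2 designs named 1 gene, 932 and 396 several, 9160 and 1193 none). Of the probe sets naming 1 gene, 34741 and 10817 matched RefSeq identifiers of GRCm38.p6, used for names.

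With 1 array per group no test was made. The members, the gene lists and the settings were chosen with earlier results of these data known. Named genes were all members, up to 4 genes by size of ratio per list and comparison, and the nearest profiles. The promoter words and genes used as contrasts were chosen after their values were seen. Other settings were the deposited values, quantile normalization, centring, floors at 0.1 and 0.4 of the mean, averaging probe sets, and leaving out cross-hybridising probe sets. Steps were tested on simulated data. Python 3.11.15, numpy 2.4.6, pandas 2.3.3 and matplotlib 3.10.9 were used.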

Additional observations from a re-analysis of the deposited data

Results flagged for a closer look

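Trim28, a co-repressor that silences transposons, differed in direction between tissues in the knockout to wild-type comparison at 4 weeks. Its log2 ratio was -0.32 in testis and 0.37 in Sertoli cells (0.50 on a further Sertoli probe set, 1415869_a_at). Each is larger than the SD between probe sets of a bright gene in its pair, 0.25 and 0.20. That SD is within an array pair and does not measure the spread between animals. In the background, 52.1% of genes in testis and 51.8% in Sertoli cells had a log2 ratio below 0. The knockout Sertoli array of this pair was the one with high ribosomal signal. The difference between the tissues was not tested.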

How the results depend on the processing

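The direction of every member's log2 ratio was the same under all 7 other settings in each comparison where both gave a ratio (286 of 286 values), and no called value reversed. Of 126 values of medians and counts, 116 stayed within the spread between probe sets or within 1.5 times the count. The exceptions follow. The median log2 ratio of the members for 10 against 4 weeks in the knockout was -1.47 with probe sets averaged and -2.35 without cross-hybridising probe sets. For 10 weeks knockout against wild type it was -1.98 with a floor raised to 0.4 of that mean of an array, -1.84 with probe sets averaged and -2.80 without cross-hybridising probe sets. For wild-type Sertoli cells against TM4 it was 2.78 with the values as deposited, where the median of all genes moved from -0.08 to 0.59 because the deposited scales of the arrays differ. For TM4 with against without ERM it was -0.28 with the values as deposited, and 0 members were at least 2-fold lower there and with the floor at 0.4, while 1 was at least 2-fold higher with the floor at 0.1. The number at least 2-fold lower was 5 to 7 in both 10-week comparisons and 0 at 4 weeks under every setting. Setting the same alternatives against the further gene lists was added after seeing the data and reversed none of their called medians. No leaving out of replicates was possible with 1 array per group. No paired analysis was possible because the groups hold 1 array each. Dim readings limit Piwil4, Tdrd1 and, at 10 weeks and in TM4, Piwil1 and Rnf17.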
